A study of Mus musculus with 32 samples.

Results

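The genes of troponin and tropomyosin, the proteins that switch the thin filament of muscle on and off, were examined in laser-captured regions of the tibialis anterior (TA) muscle. The members were chosen by gene name and were 10 of the 24952 genes in the tables: Tnnt1, Tnnt2 and Tnnt3 for troponin T, Tnni1 and Tnni2 for troponin I, Tnnc1 and Tnnc2 for troponin C, and Tpm1, Tpm2 and Tpm3 for tropomyosin. All mice were male wild-type C57BL/6JRj mice, kept in single cages on the AIN93M diet, which the older mice had received for longer. They were 10 or 30 months old. Regions marked by α-bungarotoxin, a toxin that binds the acetylcholine receptors of the neuromuscular junction (NMJ), were cut from cross sections and gave the NMJ libraries, and regions away from synapses gave the xNMJ libraries. A library pooled many such regions. Age and region together gave 4 groups, called 10m NMJ and 30m NMJ for the synaptic and 10m xNMJ and 30m xNMJ for the other regions, with 8 libraries in each and 32 in all. Equal replicate numbers were not stated to be the same mouse, and p values measure the spread between these libraries.

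Striated muscle contracts when calcium binds troponin C. This releases the block that troponin I sets on the thin filament, and troponin T ties the complex to tropomyosin, a coiled coil that lies along actin and covers the myosin binding sites. Separate genes encode the fast and slow forms of these proteins. Tnnt3, Tnni2 and Tnnc2 are the fast troponins, Tnnt1 and Tnni1 the slow ones, Tnnc1 serves slow and cardiac muscle, and Tnnt2 is the cardiac troponin T. Tpm1 is the main tropomyosin of fast fibers, Tpm2 is shared by fast and slow fibers, and Tpm3 is the slow fiber tropomyosin, although Tpm1 and Tpm3 also give cytoplasmic forms in many cell types. Spliced forms of a gene were summed, so these forms were not told apart. The TA of the mouse is a fast muscle.

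Several members lie close together on GRCm38. Tnni1 (chr1:135779434-135810989) and Tnnt2 (chr1:135836354-135852260) are 25.4 kb apart with Lad1 between them, and Tnni2 (chr7:142441808-142444410) and Tnnt3 (chr7:142498836-142516009) are 54.4 kb apart with Lsp1 between them. Tnnt1 (chr7:4504570-4516382) starts 1922 bp from the cardiac troponin I gene Tnni3. The other members are Tnnc2 (chr2:164777161-164779967), Tpm3 (chr3:90072649-90100902), Tpm2 (chr4:43514711-43523765), Tpm1 (chr9:67022590-67049406) and Tnnc1 (chr14:31208312-31211729). All 10 are annotated as protein-coding, and the coordinates span the whole gene with its introns. Tnnc1 overlaps Nisch, Tnnt3 overlaps Prr33 and Tnnc2 overlaps Ube2c.

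Of the 10 members, 8 had a RefSeq promoter entry, and Tnni2 and Tnnt3 had none. The promoters of both abundant tropomyosins are printed because these genes were lower in NMJ, that of Tnnc2 because it was the abundant member that did not pass the test, and that of Tnnt1 because it is the slow partner of the same complex. Each runs 5′ to 3′ over the 250 bases before the start site of its RefSeq entry, on the minus strand of GRCm38.p6. That start lies inside the gene span given above. The Tnnt1 stretch therefore lies wholly within its gene span, and the other stretches lie partly within theirs. Capitals mark matches on either strand to the E-box CANNTG, the M-CAT motif CATTCC, the TATA box TATAAA and the GC box GGGCGG.
Tpm1 (chr9:67049214-67049463): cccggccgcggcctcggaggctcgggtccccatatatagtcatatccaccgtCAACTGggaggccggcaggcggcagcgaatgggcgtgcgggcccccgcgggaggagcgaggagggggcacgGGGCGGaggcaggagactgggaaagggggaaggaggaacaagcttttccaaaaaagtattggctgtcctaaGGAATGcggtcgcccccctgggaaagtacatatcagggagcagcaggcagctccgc
Tpm2 (chr4:43523555-43523804): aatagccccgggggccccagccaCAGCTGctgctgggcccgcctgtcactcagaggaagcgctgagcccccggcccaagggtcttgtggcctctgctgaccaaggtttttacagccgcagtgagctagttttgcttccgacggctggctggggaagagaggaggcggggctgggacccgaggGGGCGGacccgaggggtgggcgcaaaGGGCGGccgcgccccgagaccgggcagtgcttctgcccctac
Tnnc2 (chr2:164779735-164779984): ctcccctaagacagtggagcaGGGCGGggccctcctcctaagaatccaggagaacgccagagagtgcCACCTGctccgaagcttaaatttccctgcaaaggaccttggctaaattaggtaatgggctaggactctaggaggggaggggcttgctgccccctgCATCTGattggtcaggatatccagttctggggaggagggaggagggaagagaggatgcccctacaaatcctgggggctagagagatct
Tnnt1 (chr7:4515976-4516225): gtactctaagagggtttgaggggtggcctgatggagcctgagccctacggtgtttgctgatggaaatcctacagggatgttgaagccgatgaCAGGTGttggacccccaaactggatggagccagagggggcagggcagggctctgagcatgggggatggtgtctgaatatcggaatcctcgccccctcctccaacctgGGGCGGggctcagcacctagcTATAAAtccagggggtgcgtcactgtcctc

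All 11 promoter entries of the 8 members, some of which have a pair of them, held an E-box, the motif of the myogenic factors, and 5 held a GC box, the 4 printed ones among them. Of 32851 promoters in all, 66.2% held an E-box and 32.7% a GC box. The E-box of Tpm1 lay 198 bases before the start, that of Tpm2 227 bases, those of Tnnc2 183 and 88 bases and that of Tnnt1 158 bases. A TATA box occurred in 1 of the 11, that of Tnnt1, 30 bases before the start. An M-CAT motif occurred in 3, those of Tnnc1, Tnnt2 and Tpm1, and lay 56 bases before the start in Tpm1. The shares of all promoters with these motifs were 12.4% and 12.6%. The CArG box and the MEF2 motif matched in none of the member promoters, and in 1.47% and 2.92% of all promoters. The motifs overlap no other motif among the matches shown, and a match describes letters only.

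The shallowest library held 4026648 counts and the deepest 16516788. The median total was 6062117 for 10m xNMJ and 9605869 for 10m NMJ. It was 6790011 for 30m xNMJ and 9825357 for 30m NMJ. A floor of 3 counts was thus between 0.182 and 0.745 counts per 1000000 counts (CPM), and it covers counting error only, since the reads carried no molecular identifiers and are not independent molecules. NMJ libraries were deeper at 10 months by a two-sided exact permutation test over libraries (p = 0.0131), which did not hold after adjustment over 8 tests of library measures (adjusted p = 0.104). At 30 months the same exact test gave p = 0.0488 and an adjusted p of 0.195.

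A pair of xNMJ libraries stood apart from their group. The library 30m xNMJ replicate 5 held 78.5 transcripts per 1000000 (TPM, scaled by transcript length) of Chrne, the adult acetylcholine receptor subunit made by synaptic nuclei. The other xNMJ libraries had at most 1.6 TPM of Chrne, and NMJ libraries 231 to 651 TPM. The library 10m xNMJ replicate 8 was the highest of its group for Myl2 (38.3 TPM) and Myl3 (627 TPM), which encode myosin light chains of slow fibers, and for Myh7 (3.15 TPM), the slow myosin heavy chain. Not all slow or cardiac genes were high in it. It was the lowest of its group for the slow calcium pump Atp2a2 (0.175 TPM). For the cardiac calsequestrin Casq2 (16.2 TPM) it lay within the range of the others. Calls of the members that rest on either library are given with and without it.

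At 10 months the members took a mean of 7.42% ± 2.49 of all counts in xNMJ and 6.96% ± 0.93 in NMJ (SD, n = 8 libraries). At 30 months they took 7.21% ± 2.08 and 6.41% ± 1.0. The differences between NMJ and xNMJ, −0.46 percentage points at 10 months and −0.80 at 30 months, were smaller than the spread between libraries (two-sided exact permutation test, adjusted p = 0.843 and 0.716). Nearly all of this share came from the fast genes. Mean TPM over all libraries was 30209 for Tnnc2, which ranked 1 among all genes, 27988 for Tnnt3, which ranked 3, and 23175 for Tnni2, which ranked 4. Tpm1 followed with 13728 TPM at rank 9 and Tpm2 with 2660 TPM at rank 67.

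The slow and cardiac members were far lower on the TPM scale. Tpm3 had a mean of 28.3 TPM, Tnnc1 10.4, Tnnt1 5.65, Tnni1 1.29 and Tnnt2 0.253. In each group the ranges of Tnnc2 and Tnnt3 overlapped, as did those of Tnnt3 and Tnni2. Within a library, Tnni2 over Tnnt3 was at most 0.968 in 10m xNMJ, 0.869 in 30m xNMJ and 0.926 in 30m NMJ, so Tnni2 was the lower throughout. In 10m NMJ this TPM ratio ran from 0.798 to 1.07. Tnnc2 over Tnnt3 was at least 1.12 in 10m NMJ, whereas in the other groups Tnnc2 was higher in some libraries and lower in others. Tpm1 lay below Tnni2 without overlap in both NMJ groups and overlapped it in both xNMJ groups, although within each xNMJ library Tpm1 was the lower. Tpm2 lay below Tpm1 and above Tpm3 without overlap in every group, whereas Tpm3 overlapped Tnnc1 in every group but 10m NMJ, and Tnnt1 overlapped Tnni1 in each group.

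Tnnt3 made up at least 99.7% of troponin T TPM in every library. The lowest group mean was 99.99% for Tnni2 within troponin I and 99.95% for Tnnc2 within troponin C. Tropomyosin was divided more evenly. Tpm1 took group means between 83.2% and 83.5% of tropomyosin TPM. Tpm2 took most of the remainder, with means between 16.2% and 16.6%.

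**Figure D1:**
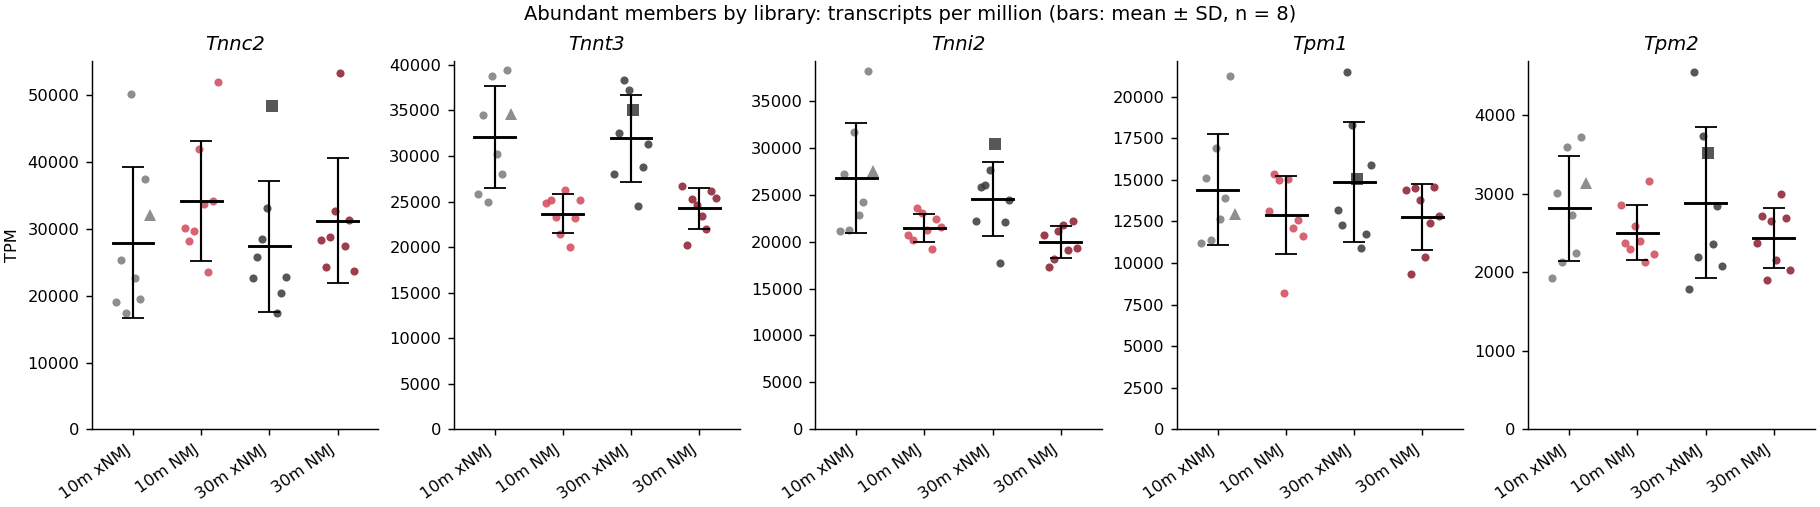
TPM of Tnnc2, Tnnt3, Tnni2, Tpm1 and Tpm2 (vertical axes, from 0) in each library by group, with the mean and SD as bars (n = 8). Triangles mark 10m xNMJ replicate 8 and squares 30m xNMJ replicate 5. Tnnc2 spreads the most, from 17371 to 53312 TPM, and the median of Tnnt3 at 10 months is 24072 TPM for NMJ against 32384 for xNMJ.

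The comparison of NMJ with xNMJ regions asks how fiber transcripts differ between the synaptic and the extra-synaptic part of the muscle. Relative to the other genes, 4 fast or shared members were lower in NMJ at both ages: Tnnt3, Tnni2, Tpm1 and Tpm2. These were 4 of the 8 members tested at either age, where 5.05% of the 13990 tested genes were lower at 10 months and 4.25% at 30 months. None of the 8 was higher, against 6.5% and 5% of all tested genes, and genes called in either direction came to 11.5% and 9.26%. Tnni1 and Tnnt2 did not reach 1 CPM in at least 8 libraries and were not tested. In these bulk regions, fewer fibers in a region and less RNA per fiber cannot be told apart.

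The background depended on abundance. Of the 169 tested genes that averaged 1000 CPM or more, 65.1% were lower in NMJ at 10 months and 72.8% at 30 months. The median log2 fold change was −0.75 over the 8 tested members at 10 months and −0.86 at 30 months, and 0.00 and −0.01 over all tested genes. Over the 169 abundant genes, the abundant members among them, it was −0.80 and −0.90. The medians of the 8 tested members, of which Tnnc1, Tnnt1 and Tpm3 averaged less than 1000 CPM, were no lower. The abundant members were Tnnt3, Tnni2, Tnnc2, Tpm1 and Tpm2, of which 4 of 5 fell, so that their count is to be read against these larger shares.

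Tnnt3, which anchors the fast troponin complex, had between 20245 and 40259 normalized CPM in 10m xNMJ (median 27355), counted with TMM factors. In 10m NMJ it had between 11236 and 17358 (median 14971). All NMJ libraries were below all xNMJ libraries. The log2 fold change was −0.92 ± 0.17 (SE, n = 8 per group), a ratio of 0.528 (edgeR, adjusted p = 0.0002). At 30 months the range was 20118 to 36546 in xNMJ (median 29711) and 11367 to 17087 in NMJ (median 13483), again without overlap. The log2 fold change was −1.01 ± 0.17, a ratio of 0.495 (edgeR, adjusted p = 9.0e-05).

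Tnni2, the fast inhibitory subunit, fell along with it. At 10 months it ranged from 12594 to 25573 normalized CPM in xNMJ (median 16058) and from 8115 to 12197 in NMJ (median 10145), with no overlap. Its log2 fold change was −0.80 ± 0.18 (edgeR, adjusted p = 0.0018). At 30 months the ranges were 11045 to 23531 in xNMJ (median 16727) and 7360 to 11921 in NMJ (median 8563). These groups overlapped at their edges. The log2 fold change there was −0.91 ± 0.18 (edgeR, adjusted p = 0.0006).

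Both abundant tropomyosins were lower in NMJ with more overlap between groups. Tpm1 had 12615 to 27594 normalized CPM in 10m xNMJ (median 16875) and 8709 to 13990 in 10m NMJ (median 12230), and its log2 fold change reached −0.63 ± 0.19 (edgeR, adjusted p = 0.0191). At 30 months it had 12876 to 28379 in xNMJ (median 18120) and 7713 to 14035 in NMJ (median 11241), and the change was −0.82 ± 0.19 on the log2 scale (edgeR, adjusted p = 0.0030). The highest xNMJ library was well above every NMJ library at both ages, and the lowest lay within the NMJ range.

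Tpm2 ranged from 3287 to 7973 normalized CPM in 10m xNMJ (median 5246) and from 2604 to 4168 in 10m NMJ (median 3209). The groups overlapped, and its log2 fold change was −0.69 ± 0.22 (edgeR, adjusted p = 0.0323). At 30 months it ranged from 3062 to 9975 in xNMJ (median 4521) and from 2175 to 3759 in NMJ (median 3002), and the change was −0.90 ± 0.22 on the log2 scale (edgeR, adjusted p = 0.0053). At 10 months the count of members called lower dropped to 2, Tnnt3 and Tnni2, without 10m xNMJ replicate 4 or 7, whereas at 30 months it was 4 without any of the 32 libraries. The 10-month call of Tpm2 was the least firm. It was lost without any 1 of 8 libraries, namely 10m xNMJ replicates 4, 7 and 8 and 10m NMJ replicates 2, 3, 5, 6 and 8 (edgeR, adjusted p up to 0.0819), and with DESeq2 size factors in edgeR (adjusted p = 0.0531). Without 10m xNMJ replicate 8 it was −0.64 on the log2 scale (edgeR, adjusted p = 0.0633).

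Without 30m xNMJ replicate 5, the library with Chrne, the 30-month values were −0.96 for Tnnt3, −0.83 for Tnni2, −0.78 for Tpm1 and −0.84 for Tpm2 on the log2 scale. All 4 still passed the test (edgeR, adjusted p = 0.0002, 0.0013, 0.0049 and 0.010).

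These calls depended on the scaling of the libraries. TMM factors, which align the bulk of genes, had medians of 0.831 and 0.765 for xNMJ at 10 and 30 months, and of 1.21 and 1.25 for NMJ. Scaled to library totals instead, the median log2 fold change of all tested genes shifted to 0.56 at 10 months and 0.61 at 30 months, and 92.7% and 97.3% of the genes called were higher in NMJ, against 56.3% and 54.1% with TMM. Under that scaling 0 members were lower. Relative to the shifted median, Tnnt3 was still −0.93 and −0.99 and Tnni2 −0.81 and −0.90. With limma on log2(TPM + 1), Tnnt3 remained the member called lower at both ages, with log2 differences of −0.42 and −0.39 (adjusted p = 0.0312 and 0.0400). With log2(TPM + 0.1) the differences were the same and neither passed (limma, adjusted p = 0.0541 and 0.0663).

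**Figure D2:**
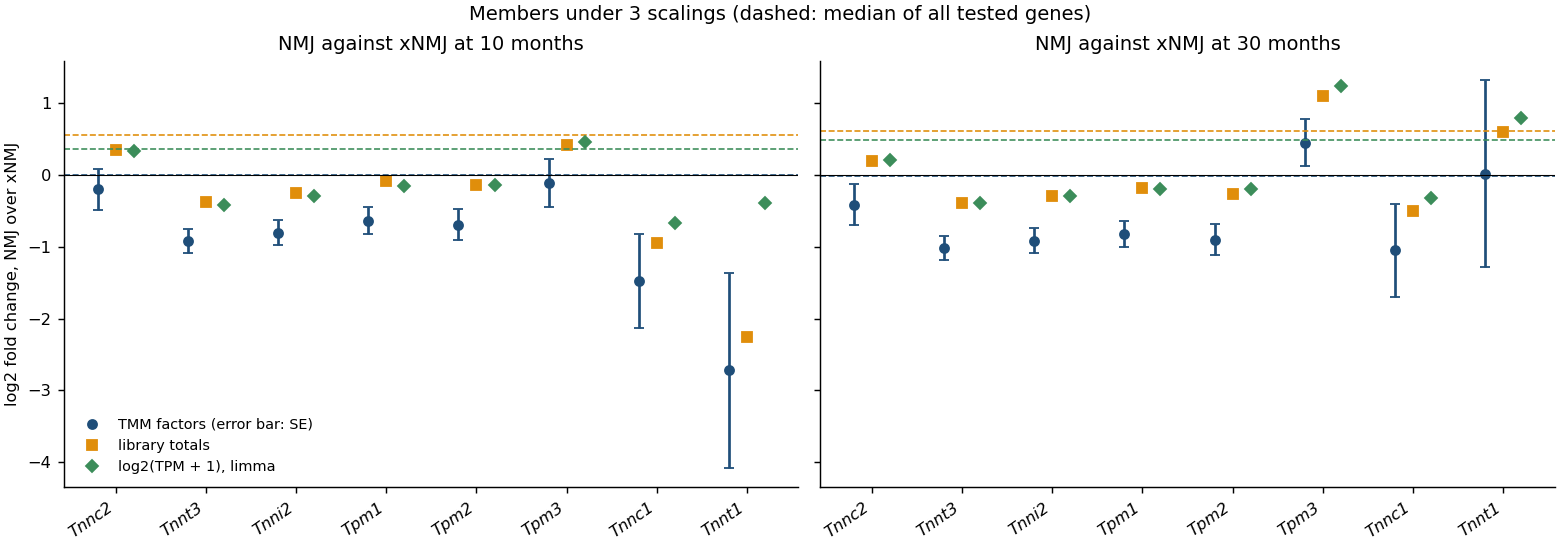
Log2 fold change of NMJ against xNMJ for the tested members at both ages under TMM factors, library totals and log2(TPM + 1), with all-gene medians marked. The median of all tested genes sits at 0.00 and −0.01 under TMM and at 0.56 and 0.61 under library totals, and each member moves with it.

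Tnnc2, the fast calcium sensor, was the fast troponin that did not pass the test. It had 11226 to 40926 normalized CPM in 10m xNMJ (median 15775) and 10340 to 28529 in 10m NMJ (median 15890). At 30 months it had 11072 to 38949 in xNMJ (median 18181) and 9213 to 30432 in NMJ (median 12900). The groups overlapped over most of their range. The log2 fold change was −0.20 ± 0.29 at 10 months (95% interval −0.76 to 0.37, edgeR, adjusted p = 0.743) and −0.41 ± 0.29 at 30 months (95% interval −0.98 to 0.16, edgeR, adjusted p = 0.465). Under library totals it was 0.35 and 0.20, or −0.21 and −0.41 relative to the shifted median of all genes. With TMM the 10-month value was 0.05 without 10m xNMJ replicate 4, and the 30-month value −0.19 without 30m xNMJ replicate 5.

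Set against Tnnt3 in the same library, Tnnc2 had a higher median in NMJ. This ratio was chosen after its values were seen and is given without a test. On the TPM scale Tnnc2 over Tnnt3 ranged from 0.699 to 1.29 in 10m xNMJ (median 0.744) and from 1.12 to 2.06 in 10m NMJ (median 1.28). It ranged from 0.707 to 1.38 in 30m xNMJ (median 0.769) and from 0.937 to 2.27 in 30m NMJ (median 1.2). The groups overlapped at both ages. The other fast ratios moved less. Tnni2 over Tnnt3 had medians of 0.816 and 0.907 in xNMJ and NMJ at 10 months, and of 0.773 and 0.851 at 30 months, and Tpm1 over Tnnt3 had medians of 0.437 and 0.558, and of 0.458 and 0.547.

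**Figure D3:**
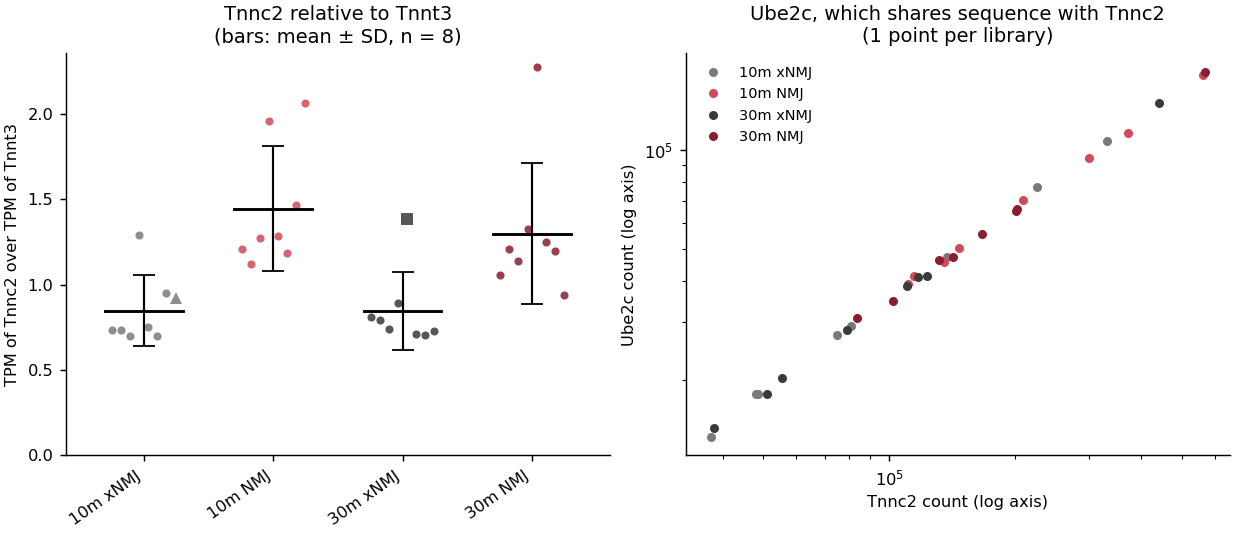
Left, TPM of Tnnc2 divided by TPM of Tnnt3 in each library by group, with the mean and SD as bars (n = 8). The highest value is 2.27, in 30m NMJ, and xNMJ libraries reach at most 1.38. Right, counts of Ube2c against counts of Tnnc2 on log axes with 1 point per library, in which Ube2c is 30.0% to 37.7% of Tnnc2.

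The libraries with the most Tnnc2 came from all 4 groups. They were 30m NMJ replicate 5 with 53312 TPM, 10m NMJ replicate 8 with 52050, 10m xNMJ replicate 4 with 50152 and 30m xNMJ replicate 5 with 48456. Their total counts were 16422527, 16516788, 10020085 and 13182475 and ranked 2, 1, 11 and 5 among the 32 libraries. The part of depth in these values was not tested.

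Not all reads of Tnnc2 could be kept apart from those of Ube2c, a ubiquitin-conjugating enzyme of dividing cells. Ube2c is annotated on the opposite strand, and its transcript Ube2c-201 covers 5 stretches of Tnnc2 exon, such as chr2:164777190-164777333. Of 670 sequences of 31 bases in Tnnc2 transcripts, 453 (67.6%) also occur in Ube2c, and the counting did not use strand. The Ube2c count was between 30.0% and 37.7% of the Tnnc2 count in all 32 libraries, with a median of 34.3%. With both counts added, the log2 fold change was −0.22 at 10 months and −0.42 at 30 months (edgeR, adjusted p = 0.697 and 0.424). Tpm1 and Tpm2 share 9 such sequences, and Tpm3 and Tpm4 share 2.

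The slow troponins were scarce. Tnnt1, the slow troponin T, was at or under 3 counts in 14 of the 32 libraries. In TPM it had 0 to 88.5 in 10m xNMJ (median 0.68) and 0 to 14 in 10m NMJ (median 0.98). It had 0 to 14.7 in 30m xNMJ (median 0.10) and 0 to 15.4 in 30m NMJ (median 1.75). The top value was that of 10m xNMJ replicate 8, which held 89.3% of the Tnnt1 counts of its group. The log2 fold change of −2.72 ± 1.36 at 10 months (edgeR, adjusted p = 0.229) became 0.05 without it. At 30 months the log2 fold change was 0.02 ± 1.30 (edgeR, adjusted p = 0.996), and it was −0.90 without 30m NMJ replicate 6 and 1.49 without 30m xNMJ replicate 7, which held 56.1% and 62.7% of the Tnnt1 counts of their groups.

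Tnni1, the slow inhibitory subunit, had 0.02 to 8.25 TPM in 10m xNMJ (median 0.25) and 0.06 to 6.26 in 10m NMJ (median 0.16). It had 0.05 to 0.57 in 30m xNMJ (median 0.20) and 0.18 to 10.2 in 30m NMJ (median 0.93). It exceeded 3 counts in 1 of 8 libraries of each xNMJ group, in 4 of 8 of 10m NMJ and in 7 of 8 of 30m NMJ. Most values were thus near the detection limit. A fixed floor of 3 counts is also easier to pass in the NMJ groups, which had higher median total counts.

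Tnnc1, the calcium sensor of slow and cardiac muscle, was above 3 counts in every library. It had 3.89 to 34.8 TPM in 10m xNMJ (median 6.60) and 2.29 to 16.7 in 10m NMJ (median 4.73). It had 3.33 to 46.4 in 30m xNMJ (median 5.0) and 1.5 to 39.8 in 30m NMJ (median 5.58). The groups overlapped almost fully. The log2 fold change was −1.48 ± 0.66 at 10 months (edgeR, adjusted p = 0.160) and −1.05 ± 0.65 at 30 months (edgeR, adjusted p = 0.386). Without 10m xNMJ replicate 8 the 10-month value was −0.95, and without 30m xNMJ replicate 5, which held 56.5% of the Tnnc1 counts of its group, the 30-month value was −0.62. In 30m NMJ, 54.4% of the Tnnc1 counts lay in replicate 4 (39.8 TPM, next highest 11.7), which moved the 30-month value the other way, toward 0. The high Tnnc1 libraries were not always high in the other slow genes: 30m xNMJ replicate 8 had 46.4 TPM of Tnnc1 and 0 of Tnnt1.

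Tnnt2, the cardiac troponin T, was the scarcest member. At 10 months it had 0.06 to 0.53 TPM in xNMJ (median 0.09) and 0.10 to 0.55 in NMJ (median 0.32). At 30 months it had 0.02 to 0.24 in xNMJ (median 0.09) and 0.18 to 1.28 in NMJ (median 0.30). It passed 3 counts in 1 of 16 xNMJ libraries and in 5 of 8 and 7 of 8 NMJ libraries at 10 and 30 months. The NMJ groups had higher median total counts, which makes this floor easier to pass there. None of the 12 protein-coding transcripts of Tnnt2 has a support level of 1 to 3 in GENCODE M21. The paper states that its reference held protein-coding Ensembl transcripts of those levels, in a release not examined here. Which of them gave the Tnnt2 counts is not given in the sources used here.

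Tpm3 had 11.7 to 90.2 TPM in 10m xNMJ (median 16.5) and 18.8 to 50.0 in 10m NMJ (median 26.2). At 30 months it had 8.38 to 28.5 in xNMJ (median 13.8) and 19.6 to 69.4 in NMJ (median 36.8). The top value at 10 months was again 10m xNMJ replicate 8. By edgeR with TMM factors the log2 fold change was −0.11 ± 0.33 at 10 months (adjusted p = 0.891), or 0.42 without that library, and 0.45 ± 0.33 at 30 months (95% interval −0.20 to 1.10, adjusted p = 0.484). At 30 months Tpm3 was called higher under library totals (log2 fold change 1.10, adjusted p = 0.0221) and in limma on log2(TPM + 1) (1.24, adjusted p = 0.0045). Both scalings raised the median of all tested genes, and relative to it Tpm3 was 0.49 and 0.75, against 0.47 with TMM.

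**Figure D4:**
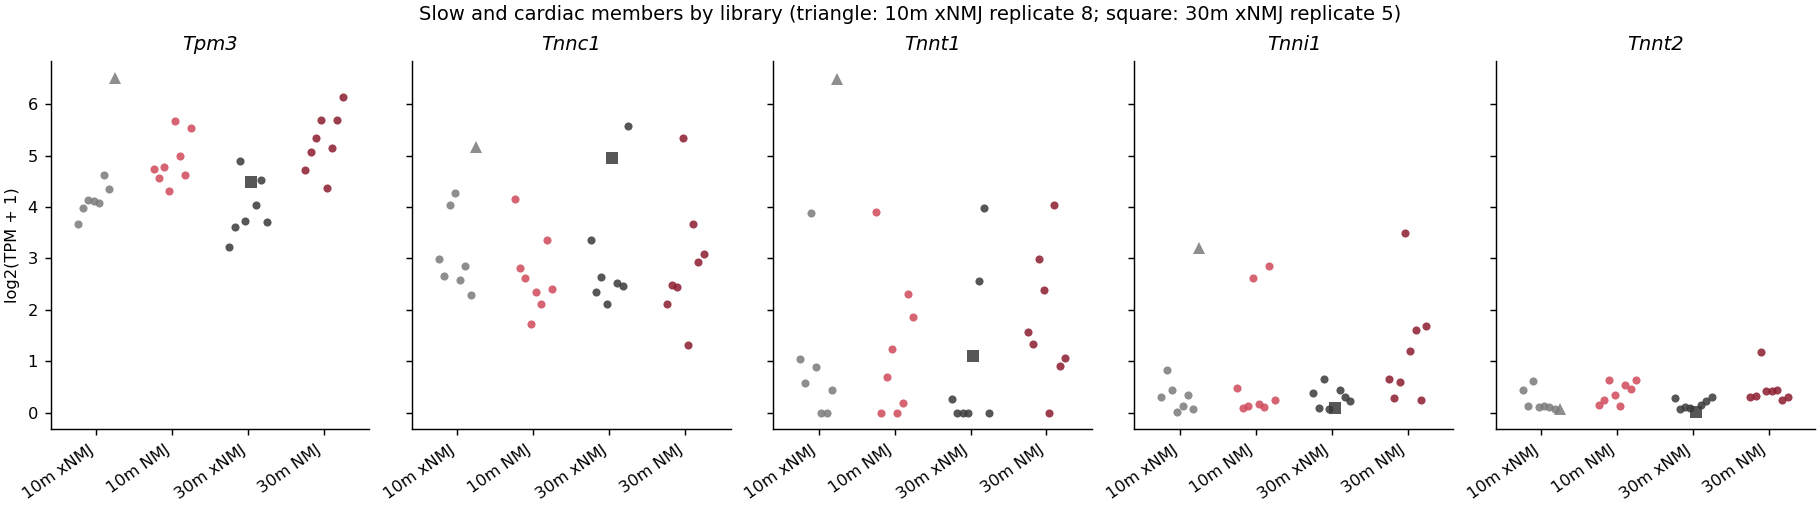
TPM of Tnnt1, Tnni1, Tnnc1, Tnnt2 and Tpm3 in each library on log2(TPM + 1) axes, by group (n = 8). The square is 30m xNMJ replicate 5. The triangle, 10m xNMJ replicate 8, is the highest library of its group for Tnnt1 (88.5 TPM), Tpm3 (90.2), Tnnc1 (34.8) and Tnni1 (8.25).

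Slow and fast genes were also compared within each library. Ratios were taken as log2((TPM + 1) of the slow gene over (TPM + 1) of the fast gene), and 16 comparisons were made by two-sided exact permutation tests with 12870 arrangements each, adjusted over all 16. Tpm3 over Tpm1 rose in NMJ at 30 months. It ranged from −10.5 to −9.00 in 30m xNMJ (mean −9.80), and from −9.10 to −7.51 in 30m NMJ (mean −8.36). The ranges overlapped only at their edge. The difference was 1.44 ± 0.27 (SE, exact p = 0.0003, adjusted p = 0.0050). By edgeR with TMM factors the log2 fold change at 30 months was −0.82 for Tpm1 and 0.45 for Tpm3 (adjusted p = 0.484 for Tpm3). Abundant genes as a class were lower in NMJ, with a median of −0.90 over the 169 tested genes that averaged 1000 CPM or more. The part of this background in the ratio was not tested. Fibroblast, macrophage and Schwann cell markers were also higher in 30m NMJ, as given with the marker lists, and cytoplasmic forms of Tpm3 and Tpm1 from such cells were counted with those of fibers. Their part in this ratio was not tested. In percent, the median of Tpm3 over Tpm1 was 0.112 in 30m xNMJ and 0.312 in 30m NMJ.

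At 10 months the same ratio differed by 0.62 (exact permutation test, adjusted p = 0.400), and by 0.94 without 10m xNMJ replicate 8 (adjusted p = 0.0075). Whether the difference itself changed with age was not tested. Tnni1 over Tnni2 was higher by 1.22 in NMJ at 30 months (exact permutation test, adjusted p = 0.0186), with Tnni1 below a median of 1 TPM in both groups, and the call was lost without 30m xNMJ replicate 2, 4, 5 or 8. Tnni2, 1 of the abundant genes, had a log2 fold change of −0.91 there by edgeR, and its part in this ratio was not tested. At 10 months the difference in Tnni1 over Tnni2 was 0.47 (adjusted p = 0.663, exact permutation test).

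Neither of the other slow to fast ratios passed. Tnnc1 over Tnnc2 differed by −1.0 at 10 months and by −0.54 at 30 months (exact permutation test, adjusted p = 0.308 and 0.663). Tnnt1 over Tnnt3 differed by 0.03 and 1.19 (exact permutation test, adjusted p = 0.978 and 0.400).

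**Figure D5:**
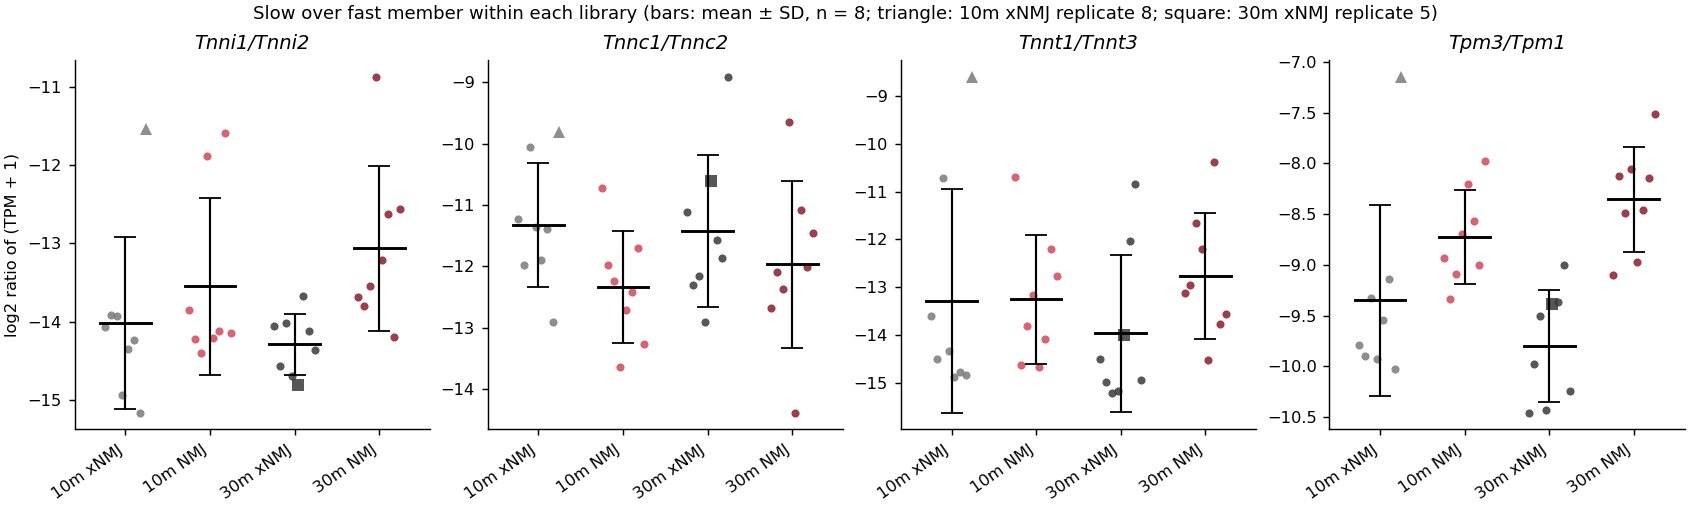
Log2 ratio of slow to fast TPM (each plus 1) for troponin I, troponin C, troponin T and tropomyosin in each library, by group (n = 8), with the mean and SD. At 30 months the mean of Tpm3 over Tpm1 is −9.80 for xNMJ and −8.36 for NMJ.

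The comparison of 30 with 10 months asks whether the members changed with age in either region. None of the 8 tested members passed in NMJ, in xNMJ or in the interaction of age and region, and none had an unadjusted p under 0.05 (edgeR); DESeq2 also called 0 members. Over all genes, edgeR called 0% in NMJ, 0.0429% in xNMJ (0.0357% higher and 0.00715% lower with age) and 0% for the interaction, while 372, 1322 and 708 genes had an unadjusted p under 0.05 and DESeq2 called 0, 84 and 10. In NMJ the log2 fold changes with age lay between −0.21 for Tnnc2 and 0.50 for Tnnc1. The Tnnc1 value was −0.29 without 30m NMJ replicate 4, which held 54.4% of the Tnnc1 counts of its group. For the called members of the region comparison they were −0.06 for Tnnt3 (95% interval −0.39 to 0.27), −0.19 for Tnni2 (−0.53 to 0.15), −0.10 for Tpm1 (−0.46 to 0.26) and −0.15 for Tpm2 (−0.57 to 0.28).

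In xNMJ the values were 0.03 for Tnnt3 (95% interval −0.30 to 0.36), −0.08 for Tnni2 (−0.43 to 0.26), 0.09 for Tpm1 (−0.27 to 0.45) and 0.06 for Tpm2 (−0.36 to 0.49). The largest change in size was that of Tnnt1, at −2.54 ± 1.37 (edgeR, adjusted p = 0.586), and it was 0.24 without 10m xNMJ replicate 8. No slow to fast ratio passed in a comparison of age (exact permutation tests, adjusted p between 0.400 and 0.926). The difference between regions in the effect of age was 2.74 ± 1.86 for Tnnt1 (edgeR, adjusted p = 0.9999), or −0.05 without 10m xNMJ replicate 8, and between −0.21 and 0.56 for the other 7 tested members. The value of 0.56 was that of Tpm3, and it was 0.03 without 10m xNMJ replicate 8.

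Of 13 tested fast contractile and calcium genes, 4 were lower and 0 higher in NMJ at each age, with medians of −0.54 and −0.59 on the log2 scale at 10 and 30 months, and all 13 values were below 0. These medians were smaller in size than the −0.80 and −0.90 of the 169 genes that averaged 1000 CPM or more. The 4 most abundant were Myh4, Myl1, Mylpf and Pvalb. Myh4, the fast IIb myosin heavy chain, had log2 fold changes of −0.54 and −0.31 (edgeR, adjusted p = 0.111 and 0.454), and Myl1, a fast light chain, −0.31 and −0.71 (adjusted p = 0.470 and 0.0502, edgeR). Mylpf, the fast regulatory light chain, was −0.41 at 10 months (edgeR, adjusted p = 0.229) and fell at 30 months, with −0.79 (adjusted p = 0.0086). Pvalb, the calcium buffer parvalbumin, was at −0.12 and −0.09. The count of lower genes in this list was 0 at both ages under library totals and under limma on TPM, and 2 at 10 months with no filter on low counts. It was 3 at each age without 10m xNMJ replicate 8, and 5 at 10 months and 4 at 30 months without 30m xNMJ replicate 5.

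Slow and cardiac fiber genes were mixed. Of 11 tested, 2 were higher and 1 lower at 10 months, and 1 higher and 0 lower at 30 months, with medians of −0.18 and −0.31. Myl3, the slow light chain, was lower at 10 months (log2 fold change −2.45, edgeR, adjusted p = 0.0461) and had −1.67 at 30 months (adjusted p = 0.222). Without 10m xNMJ replicate 8 the 10-month change of Myl3 was −2.07 and did not pass (edgeR, adjusted p = 0.109), and 7 other alternatives also called 0 genes of the list lower. Fhl1, Csrp3 and Ankrd2, the other abundant ones, did not pass. Those called higher, which are named after their values were seen, were Casq2, the cardiac calsequestrin, at 10 months (1.36), and Atp2a2, the slow calcium pump that other cells also make, at both ages (1.70 and 1.57).

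Of 14 tested partners in the thin filament, 3 were lower and 0 higher at each age, with medians of −0.19 and −0.31. Acta1, the skeletal actin that tropomyosin covers, fell by 0.75 and 0.81 on the log2 scale (edgeR, adjusted p = 0.0042 and 0.0024). Neb, the filament ruler nebulin, Actn2, an actinin of the Z-disc, and Nrap did not pass, with log2 fold changes of 0.15 and 0.36, 0.01 and −0.15, and −0.35 and −0.37. Under library totals 0 partners were lower, and 1 and 2 were higher, at 10 and 30 months. In limma on TPM 1 and 0 were lower and 1 was higher at each age, and with insert size as a covariate 1 was lower at 10 months.

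Synaptic genes served as a check of the labelled regions. Of 10 tested, 9 were higher and 1 lower in NMJ at both ages, with medians of 4.89 and 4.16. Prkar1a (5.31 and 4.57), Chrna1 (4.47 and 3.94) and Etv5 (8.95 and 4.38, the latter 6.31 without 30m xNMJ replicate 5) were higher, and Lrp4 was lower (−2.0 and −1.91). Lrp4 is a receptor of the synapse and was the most abundant gene of the list. Etv5, a transcription factor of synaptic nuclei, was the list's gene called with age, higher in 30m xNMJ (log2 fold change 4.61, edgeR, adjusted p = 0.0309). Without 30m xNMJ replicate 5 the change of Etv5 was 2.67 and did not pass (adjusted p = 0.104, edgeR). Of 9 tested developmental and denervation genes, 3 were higher and 1 lower at 10 months, and 2 higher and 0 lower at 30 months. Ncam1, a cell adhesion protein, rose by 4.44 and 3.61, and Myh8, the perinatal myosin, fell by 0.77 at 10 months, while Gadd45a and Sln did not pass.

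Markers of other cells moved with the regions. Of 5 Schwann cell markers given here, 5 were higher in NMJ at 10 months and 4 at 30 months, with summed levels of 3.7 normalized CPM in xNMJ and 81.6 in NMJ at 10 months and of 4.38 and 63.6 at 30 months, led by S100b and Kcna1. Of 7 fibroblast markers, 5 were higher in NMJ at 10 months and 4 at 30 months, with summed levels of 216 normalized CPM in xNMJ and 1259 in NMJ at 10 months and of 192 and 1104 at 30 months, led by Dcn, Col3a1, Lum and Col1a2. Of 7 macrophage markers, 4 and 3 were higher, with sums of 15.3 and 125, and 22.6 and 97.0, led by Mrc1, C1qb, Csf1r and Cd68. The mean of 22.6 in 30m xNMJ included 90.9 in replicate 2, and it was 12.9 without that library. Their part in the values of the members was not tested.

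Of 7 endothelial markers, 1 and 2 were lower and none higher (0 lower at 10 months without 10m xNMJ replicate 8), with sums of 180 and 113 at 10 months and 180 and 106 at 30 months, led by Flt1, Cdh5, Kdr and Vwf. Of 9 smooth muscle and pericyte markers, 1 was higher at 10 months, and 1 higher and 1 lower at 30 months, where 0 were higher without 30m xNMJ replicate 5. Smooth muscle uses Tpm1 and Tpm2 too. Their summed level was 242 normalized CPM in xNMJ and 201 in NMJ at 10 months, and 222 and 197 at 30 months, with Rgs5, Smtn, Acta2 and Cspg4 the most abundant. In the marker lists given here, every gene was above 0 in at least 1 library of each group, except for the macrophage marker Adgre1 in 30m xNMJ.

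Among the members, the fast genes varied together between libraries of the same group. After group means were removed, log2 CPM correlated at r = 0.92 for Tnni2 with Tnnt3 and for Tnnc2 with Tnni2, at 0.88 for Tnnc2 with Tnnt3 and at 0.86 for Tnnt3 with Tpm1, over 32 libraries that share their scaling and depth. Among the abundant members the lowest value was 0.51, for Tpm1 with Tpm2, and Tnnc2 correlated at 0.65 with Tpm1 and with Tpm2. The slow gene Tpm3 reached 0.49 with Tnnt3 and 0.47 with Tpm1. Tnnt1 and Tnnc1 correlated at 0.46, and Tnnc2 and Tnnt1 at −0.03. The genes most like Tnnt3 outside the members were Ube2c (0.90), Gm5069 (0.89), Tma7 (0.88), Drap1 (0.87) and Mylpf (0.87). Ube2c shares sequence with Tnnc2 and correlated with it at 0.997, so its value is not separate from the 0.88 of Tnnc2 with Tnnt3. The genes most like Tpm2 were Gm5069 (0.87), Eif1 (0.85), Gapdh (0.85), Rpl15 (0.84) and Nme2 (0.82). For Tnnt1 they were Myh7 (0.68), Syp (0.64), Gm9903 (0.64), Spata9 (0.63) and Mad1l1 (0.63), all with few counts. These correlations are descriptions over the same libraries.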

How the data were processed

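The authors trimmed single-end reads of SMART-Seq v4 libraries with Cutadapt 1.9.1 and assigned them with kallisto 0.43.1 to protein-coding transcripts of GRCm38, without strand. A read on several transcripts was divided equally among them, and transcripts were summed per gene. The deposited estimated counts are whole numbers and were not normalized. The deposited TPM were scaled by the authors for transcript length and library total.

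Counts of 13990 genes with at least 1 CPM in at least 8 libraries were fitted with edgeR 4.0.16 (R 4.3.3) by quasi-likelihood with TMM factors and the 4 groups in one fit. P values were two-sided with Benjamini-Hochberg adjustment over every tested gene and a threshold of 0.05. SE and 95% intervals came from the same fit. Isoform ratios used the TPM values plus 1. Total counts ranged from 4026648 to 16516788 per library. No pair of libraries of a group held identical values. Groups came from the sample labels. Alternatives were DESeq2 1.42.0, limma 3.58.1 on TPM, other scaling and filters, a replicate block, insert size as a covariate, and leaving out each library. Adding Ube2c counts to Tnnc2 and leaving out 10m xNMJ replicate 8 and 30m xNMJ replicate 5 together, or singly for the lists, were chosen after seeing the data. Positions and shared sequences came from GENCODE M21. The tests were checked on simulated data.

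The members and the lists were chosen with earlier results of these data known. The text names all members, the 4 most abundant genes of each list with any gene called with age, and the 5 genes most like Tnnt3, Tnnt1 and Tpm2. Casq2, Atp2a2, Adgre1, Chrne, Myl2 and Myh7 were named after their values were seen. Results for 2 genes of a marker list are not reported here.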

Additional observations from a re-analysis of the deposited data

Results flagged for a closer look

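In 64 groups of 8 values (10 members, 4 isoform ratios and 2 library measures in 4 groups), 10 had a highest or lowest library far from the others by Dixon's criterion. Chance gives about 1 in 20 such groups.

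The library 10m xNMJ replicate 8 stood apart in 4 of them, with 8.25 TPM of Tnni1 (next highest 0.769), 90.2 TPM of Tpm3 (next highest 23.7), a log2 ratio of Tnni1 to Tnni2 of −11.5 and of Tpm3 to Tpm1 of −7.15. Tnnc2 in 30m NMJ replicate 5 was 53312 TPM, against 32738 in the next library. Tnni1 in 30m NMJ replicate 4 was 10.2 TPM, against 2.20. Tnnt2 in 30m NMJ replicate 3 was 1.28 TPM, against 0.361. Tpm1 in 10m NMJ replicate 4 was the lowest of its group at 8209 TPM, against 11647. Total counts were 13182475 in 30m xNMJ replicate 5, against 7490555, and 16422527 in 30m NMJ replicate 5, against 10918779.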

How the results depend on the processing

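Members called lower in NMJ at 10 months numbered 4, and 0 with library totals, 2 with no filter on low counts, 1 with log2(TPM + 1) and 0 with log2(TPM + 0.1). At 30 months they numbered 4, and 0, 1 and 0 with library totals and both TPM settings, each of which called 1 member higher. Leaving out each library in turn gave 2 to 4 at 10 months and 4 to 4 at 30 months. The all-gene shift under library totals is given beside the region comparison.

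Signs turned as follows on the log2 scale. At 10 months Tnnc2 was 0.35 (totals), 0.34 and 0.34 (TPM), and Tpm3 0.42 (totals), 0.47 and 0.49 (TPM) and 0.12 (replicate block). At 30 months Tnnc2 was 0.20, 0.22 and 0.22 under the same scalings, and Tnnt1 −0.10 when only the compared groups were fitted. With age in NMJ, Tnnt3 was 0.034 and 0.034 (TPM). With age in xNMJ, Tnnc1 was −0.10 and −0.13 (TPM), Tnnc2 −0.049 (totals), −0.049 (insert size), −0.0078 and −0.0077 (TPM) and −0.0018 (Ube2c added), Tnnt3 −0.028 and Tpm2 −0.00091 (totals). For the interaction, Tnni2 was 0.0076 and Tnnt3 0.033 with TPM. Without 10m xNMJ replicate 8 and 30m xNMJ replicate 5 together, Tnnt1 was 0.055 at 10 months, −0.079 at 30 months, 0.33 with age in xNMJ and −0.13 for the interaction, Tpm3 was 0.42 at 10 months and 0.0097 with age in xNMJ, and Tnnc2 was −0.16 with age in xNMJ. Totals and TPM raised the median of all tested genes in NMJ. Relative to this median Tnnc2 was −0.21 (totals), −0.03 and −0.22 (TPM) at 10 months and −0.41, −0.28 and −0.52 at 30 months. Tpm3 was −0.13, 0.10 and −0.07 relative to it at 10 months, so its sign stayed turned under log2(TPM + 1). The cause of the other turns, and of that of Tpm3 under log2(TPM + 1), was not tested. The alternatives in which Myl3 was not called at 10 months were DESeq2 size factors, totals, no filter, the replicate block, insert size and both TPM settings.

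Leaving out single libraries turned a sign or ended a call within these ranges. At 10 months Tnnc2 ran from −0.34 to 0.046, Tnnt1 from −3.79 to 0.055, Tpm3 from −0.24 to 0.42, Tpm1 from −0.70 to −0.53 and Tpm2 from −0.77 to −0.58, the last 2 losing the call in 2 and 8 of 32 settings. Tnnt1 ran from −0.90 to 1.49 at 30 months. With age in NMJ, Tnnc1 ran from −0.29 to 0.89 and Tnnt1 from −0.72 to 1.27. With age in xNMJ, the ranges were −0.37 to 0.60 for Tnnc1, −0.22 to 0.24 for Tnnc2, −0.17 to 0.010 for Tnni2, −4.01 to 0.24 for Tnnt1, −0.025 to 0.12 for Tnnt3, −0.0097 to 0.19 for Tpm1, −0.11 to 0.17 for Tpm2 and −0.59 to 0.13 for Tpm3. For the interaction they were −0.35 to 0.86 for Tnnc1, −0.46 to 0.0035 for Tnnc2 and −0.048 to 4.21 for Tnnt1. The ratio Tnni1 to Tnni2 ran from 0.91 to 1.38 at 30 months and from −0.44 to 0.082 with age in xNMJ, Tnnc1 to Tnnc2 from −0.46 to 0.12 with age in xNMJ, and at 10 months Tnnt1 to Tnnt3 from −0.34 to 0.70 and Tpm3 to Tpm1 from 0.52 to 0.94.

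The labels do not say that equal replicate numbers mark a pair, and the libraries did not meet the criterion for pairing, r over 0.1 in every pair: over 16 pairs, r of their deviations was between −0.018 and 0.366, with 5 over 0.1. With a replicate block, 4 members were lower at both ages. The ratios Tnni1 to Tnni2 (1.22) and Tpm3 to Tpm1 (1.44) at 30 months then had an adjusted p of 0.0625 in exact sign-flip tests. This is the smallest that a lone ratio rising in every pair can reach there. Tnni1 to Tnni2 did not rise in every pair, as it was lower in 30m NMJ replicate 7 than in 30m xNMJ replicate 7. Of the other fold changes of members, 368 under the other alternatives, and 1221 without 1 library, kept their direction and side of the threshold. Depth limits Tnni1, Tnnt1 and Tnnt2, which were at or under 3 counts in 19, 14 and 19 of the 32 libraries.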
